A study of Ovis aries with 6 samples.

Results

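The matrix metalloproteinases (MMPs) and their tissue inhibitors (TIMPs) were examined in dorsal skin of newborn Hu sheep, a Chinese breed known for the wavy coat of its lambs. The members were all non-control probes whose RefSeq accession gave a gene symbol starting with MMP or TIMP and a digit. This took 12 of the 15008 probes, for 6 of the 500 genes that could be named by a RefSeq accession: MMP2 (3 probes), MMP7 (2), MMP13 (1), MMP14 (3), TIMP1 (2) and TIMP3 (1). Skin of 3 lambs with a large wave coat and of 3 lambs with a small wave coat, all aged 2 days by the labels, was measured on one-colour microarrays with a single lamb on each, to compare expression between coat patterns. All 6 lambs shared a sire, and the design text of the series states that lambs of opposite coat pattern were paired within dams. The labels name no treatment, genotype or pooling, and both groups are Hu lambs that differ by wave pattern alone in the labels.

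MMPs are zinc-dependent proteases that cut collagen, basement membrane and other matrix proteins, and they are made as inactive precursors whose propeptide must be released. TIMPs bind the active site of MMPs and block it, so that the balance of proteases and inhibitors sets how much matrix is broken down. In skin these enzymes are known for remodelling the dermis and the sheath around the growing hair follicle. The reference table of the sheep assembly ARS-UI_Ramb_v3.0 lists 19 MMP and 4 TIMP genes, of which 4 and 2 could be named on the array. The other family members, among them the gelatinase MMP9 and the inhibitor TIMP2, were not analysed here. In that table MMP13 and MMP7 lie on the same chromosome, with MMP12, MMP1, MMP8, MMP27 and MMP20 between them.

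The arrays differed in brightness. The 75th percentile of the signal was 391.5, 204.7 and 249.2 for the large wave lambs (replicates 1 to 3) and 284.8, 152.2 and 94.7 for the small wave lambs, a 4.13-fold range, and in each same-numbered pair the large wave lamb had the brighter array. Skin markers were present. The keratinocyte marker SFN was well above background on all 6 arrays, and each of the 8 hair follicle genes that could be named passed the detection filter, which keeps a probe that 3 or more of the 6 arrays detect. SFN itself had a difference, large wave minus small wave, of -1.12 with an unadjusted p under 0.05 in limma, as 3.82% of all probes had. Its spots in large wave replicate 2 and small wave replicate 1 were marked as outliers and left out. On the log2 scale used below they had 7.46 and 7.53. The values kept were 7.70 and 7.58 in large wave and 8.56 and 8.97 in small wave lambs. Values below are the log2 processed signal minus the log2 of the array's 75th percentile, so that 0 is the 75th percentile of that array. A probe was called detected where Feature Extraction marked it as well above its background. In bulk skin, fewer cells of a type and less RNA per cell cannot be told apart.

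Of the 12 probes, 8 were detected on all 6 arrays, where 47.8% of all 15008 probes were. This count was 5 of 9 for the MMPs and 3 of 3 for the TIMPs. Counted over probes and arrays, MMP probes were detected in 40 of 54 cases and TIMP probes in 18 of 18, against 63.3% for all probes. Large wave skin held 21 of the 40 MMP cases and small wave skin 19. No member was detected in one group alone. MMP13 was the 1 gene of the 6 with no detected array, so that 5 genes remained for the comparison between groups. With the weaker criterion of a signal positive and significant against background, 10 of the 12 probes were detected on all 6 arrays. So were 9546 of all 15008 probes. MMP13 was still detected on none. In all, 10 of the 12 members passed the detection filter and were tested, where 10048 of all 15008 probes passed the filter.

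Probes bind their targets with different strength, so the brightness of an MMP probe and of a TIMP probe shows no order of transcript amounts, and their places on the array are given side by side. Both TIMP1 probes lay between the 98.4th and the 99.4th percentile of all probes on every array. The TIMP3 probe lay between the 61.3rd and the 66.6th. The MMP2 probe that represents its gene, chosen as the tested probe with the highest mean, ranged from the 46.1st to the 80.0th percentile between lambs. The representing MMP7 probe ranged from the 42.0th to the 80.2nd and the representing MMP14 probe from the 36.3rd to the 63.3rd. A probe near the top of the array has little room to change its percentile. On the scaled log2 values the range over the lambs was 1.76 and 0.78 for the TIMP1 probes and 0.62 for TIMP3. The 0.78 leaves out a spot of small wave replicate 3 that was marked as an outlier. For the 7 tested MMP probes the range was 1.03 to 4.39. The overlap with the inhibitors rests on the 1.03 of MMP14 A_70_P050426, which was well above background on 3 arrays. The other tested MMP probes had ranges of 2.27 to 4.39.

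**Figure D1:**
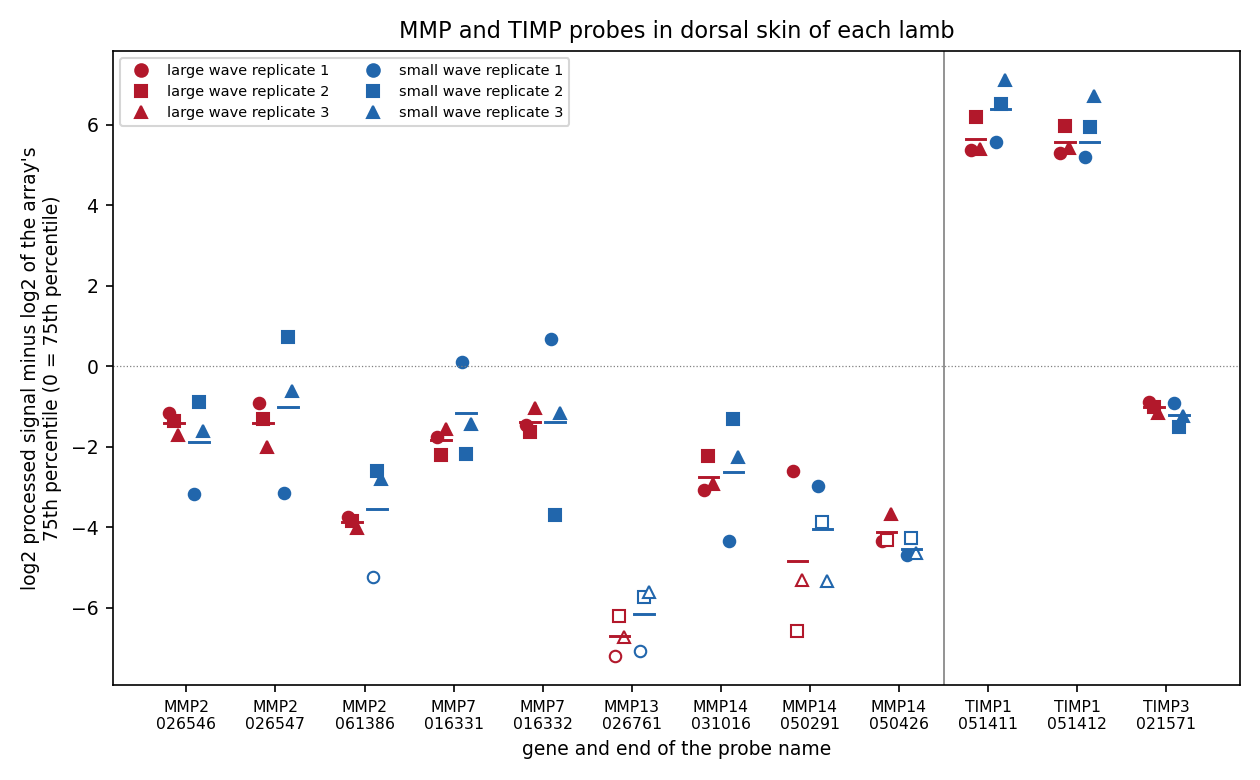
Log2 signal of each MMP and TIMP probe relative to the 75th percentile of its array (vertical axis), by gene and probe (horizontal axis), for 3 large wave lambs (red) and 3 small wave lambs (blue); marker shapes stand for replicate numbers, bars are group means and open markers are arrays where the probe was not well above background. The small wave values of MMP2, of MMP7 A_70_P016332 and of the first MMP14 probe spread around the large wave values. MMP13 is open on all 6 arrays, and small wave replicate 3 of the second TIMP1 probe carries an outlier mark and is not in the mean.

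MMP2, a secreted gelatinase that degrades basement membrane collagen and denatured collagen, was detected on all 6 arrays with 2 of its probes and on 5 arrays with its dimmest one. Its representing probe, A_70_P026547, had log2 values of -0.90, -1.32 and -2.02 in large wave replicates 1 to 3. In small wave replicates 1 to 3 the values were -3.16, 0.72 and -0.63, so that the small wave lambs held the lowest value, the highest value and the next highest. The difference, large wave minus small wave, was -0.39 ± 0.90 (SE, n = 3 per group, 95% confidence interval -2.49 to 1.71). Probe A_70_P026546 had -1.17, -1.36 and -1.72 in large wave lambs and -3.17, -0.90 and -1.61 in small wave lambs. It gave a difference of the opposite sign, 0.48 ± 0.59 (95% confidence interval -0.90 to 1.85). That dimmest probe, A_70_P061386, had -3.75, -3.83 and -4.03 against -5.22, -2.61 and -2.79, a difference of -0.33 ± 0.72 (95% confidence interval -2.0 to 1.34). Its lowest value, in small wave replicate 1, was not well above background. All 3 probes placed small wave replicate 1 lowest and small wave replicate 2 highest of the 6 lambs, and the groups overlapped at each.

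MMP14, a membrane-anchored protease that cuts fibrillar collagen and activates the MMP2 precursor at the cell surface, was detected on all 6 arrays with 1 of its 3 probes. That probe, A_70_P031016, had log2 values of -3.08, -2.22 and -2.92 in the large wave lambs and -4.33, -1.31 and -2.25 in the small wave lambs. As with MMP2, small wave replicate 1 was lowest and small wave replicate 2 highest. The difference was -0.11 ± 0.76 (SE, 95% confidence interval -1.87 to 1.65). A_70_P050426 was detected in 2 large wave lambs and 1 small wave lamb, with values between -4.69 and -3.66, and differed by 0.42 ± 0.44 (95% confidence interval -0.61 to 1.44). A_70_P050291 was detected on 2 arrays, large wave replicate 1 at -2.61 and small wave replicate 1 at -2.96, and was not tested. The 3 MMP14 probes did not share one pattern over the lambs: A_70_P031016 correlated with A_70_P050426 at r = 0.23 and with A_70_P050291 at r = -0.45 over 6 arrays, and both of these dim probes were detected on few arrays.

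MMP7, matrilysin, a small protease without the hemopexin domain that is known mainly from epithelia and glands, was detected on all 6 arrays with both probes. Its representing probe, A_70_P016332, had log2 values of -1.46, -1.63 and -1.04 in large wave replicates 1 to 3. The small wave values were 0.68, -3.70 and -1.17. Here small wave replicate 1 was the highest lamb and small wave replicate 2 the lowest, the reverse of MMP2 and MMP14, and the group means were nearly equal, with a difference of 0.02 ± 0.97 (SE, 95% confidence interval -2.24 to 2.28). In unscaled signal this probe went from 11.7 to 458 between small wave replicates 2 and 1, a 39.2-fold range, the widest of the members. The second probe, A_70_P016331, had -1.76, -2.22 and -1.56 in large wave lambs and 0.10, -2.17 and -1.43 in small wave lambs. It also placed small wave replicate 1 highest, but large wave replicate 2 lowest, with a difference of -0.68 ± 0.59 (95% confidence interval -2.05 to 0.70). MMP13, a collagenase, had unscaled signals of 1.94 to 2.85 and was not well above background on any array, so no difference is given.

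TIMP1, a secreted inhibitor of most MMPs, was bright in every lamb. Probe A_70_P051411 had unscaled signals of 16077, 14924 and 10468 in the large wave lambs and 13475, 13769 and 13134 in the small wave lambs, a 1.54-fold range over arrays whose 75th percentile ranged 4.13-fold. After scaling the values were 5.36, 6.19 and 5.39 in large wave and 5.56, 6.50 and 7.12 in small wave lambs, and the difference was -0.75 ± 0.46 (SE, 95% confidence interval -1.82 to 0.32), 1.68-fold higher in small wave skin. Without scaling, the log2 difference of this probe was 0.01. The 131 probes within 50 brightness ranks of the TIMP1 probes had a median scaled difference of -0.35, also lower in large wave skin, and their median range of unscaled signal was 3.14-fold. With the log2 75th percentile of the array as a covariate, the TIMP1 difference was -0.05 ± 0.31 in place of -0.75 ± 0.46. The large wave lamb was lower in each of the 3 same-numbered pairs, by log2 differences of -0.20, -0.31 and -1.72, and without small wave replicate 3 the difference was -0.39. A_70_P051412 had scaled values of 5.28, 5.98 and 5.41 in large wave lambs and 5.19 and 5.94 in small wave replicates 1 and 2, a difference of -0.01 ± 0.41 (95% confidence interval -0.97 to 0.96). Its spot in small wave replicate 3 was marked as an outlier and left out of the fit, and with that spot kept, at 6.71, the difference was -0.39. Unscaled, this probe had 15227, 12879 and 10620 in large wave lambs and 10408, 9326 and 9925 in small wave lambs, the marked spot included, so that large wave lay above small wave with no overlap before scaling and overlapped after it.

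TIMP3, an inhibitor that stays bound to the matrix and also blocks ADAM proteases, varied least among the tested members on the scaled values. Its probe had -0.89, -1.02 and -1.15 in the large wave lambs and -0.91, -1.52 and -1.24 in the small wave lambs, a range of 0.62. The difference was 0.20 ± 0.34 (SE, 95% confidence interval -0.58 to 0.98). The large wave lamb was higher in each of the 3 same-numbered pairs, by 0.01, 0.50 and 0.09, and the groups overlapped. Unscaled, its signal went from 40.2 to 211 between the dimmest and the brightest array, 5.24-fold, so that TIMP3 followed array brightness where TIMP1 did not.

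**Figure D2:**
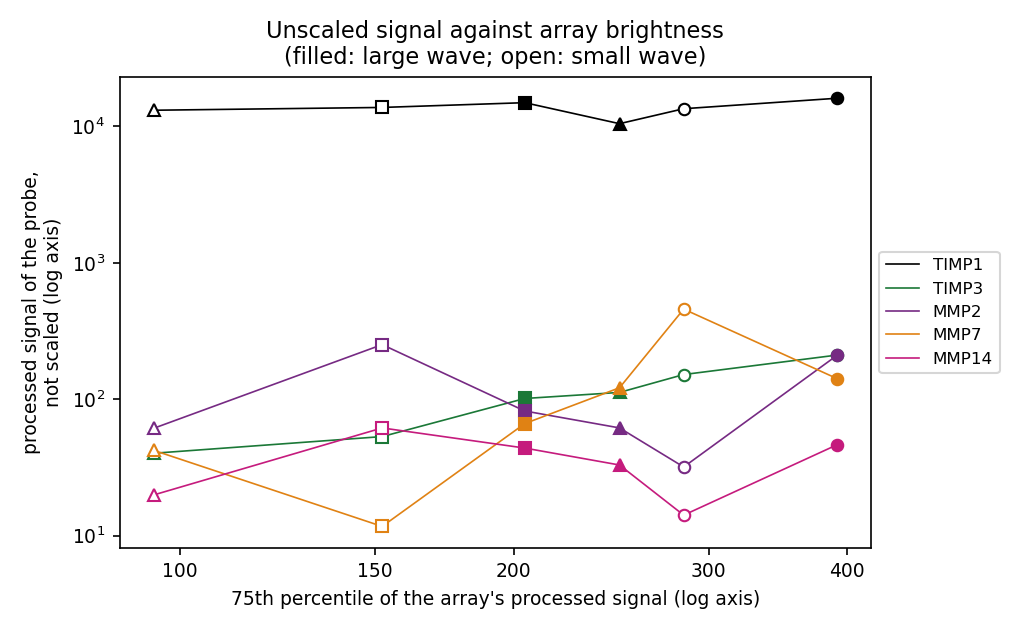
Unscaled processed signal of the representing probe of each detected gene (vertical axis, log scale) against the 75th percentile of the array (horizontal axis, log scale); each marker is 1 lamb, filled for large wave and open for small wave, with the marker shape for the replicate number as in the plot of all probes. TIMP1 stays between 10468 and 16077 over the whole range of brightness, TIMP3 goes from 40.2 to 211, and MMP2 and MMP7 do not rise steadily with brightness.

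No MMP or TIMP probe differed between the coat patterns at an adjusted p under 0.05. In limma, with p adjusted by the Benjamini-Hochberg method over the 10047 probes fitted, 0 of the 10 members passed (adjusted p from 0.777 to 0.995), where 0% of all probes were called. At an unadjusted p under 0.05 there were 0 of the 10 members, against 3.82% (384) of all probes. The groups did not overlap in 0 of the 10, against 11.2% of all probes. Large wave minus small wave was above 0 for 3 and below 0 for 4 of the 7 MMP probes tested, with a median of -0.11. It was above 0 for 1 and below 0 for 2 of the 3 TIMP probes, with a median of -0.01. Over all probes the median was -0.02, with 48.7% higher. With the 75th percentile taken over probes detected on all arrays, the median of all probes moved to 0.20 and the share of higher values to 64.2%, and 6 of the 10 members in place of 4 were then higher.

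The precision of these differences was low. The 95% confidence interval reached a median of 1.67 to either side for the MMP probes and 0.96 for the TIMP probes, against 1.06 over all probes, so that a 2-fold difference between coat patterns was within the interval of most members. The number of arrays limits the precision, and so did the spread between lambs: without small wave replicate 1 the SE of MMP2 A_70_P026547 was 0.54 in place of 0.90. With the replicate number as a block, which compares same-numbered lambs (no label states that these share a dam), 0 members passed and 584 probes had an unadjusted p under 0.05. Without small wave replicate 1, 0 probes passed, but 3 of the 10 members had an unadjusted p under 0.05, against 17.6% (1764) of all probes: MMP2 A_70_P026547 with -1.46, MMP2 A_70_P061386 with -1.17 and TIMP1 A_70_P051411 with -1.16. Among those 5 arrays every large wave one outshone both small wave ones, and brightness and coat cannot be told apart there.

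**Figure D3:**
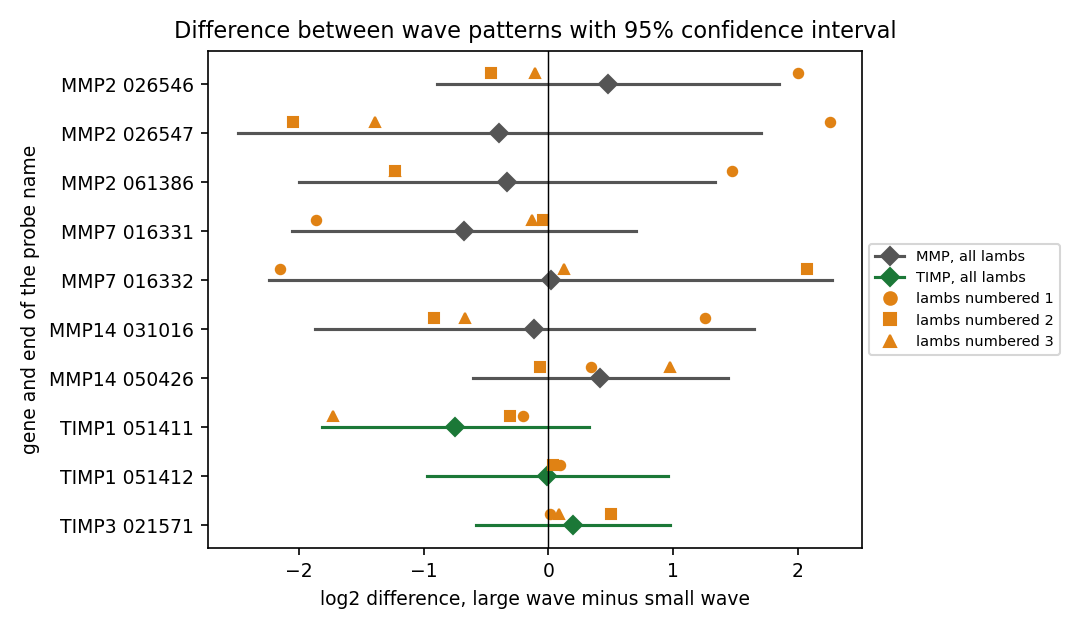
Log2 difference, large wave minus small wave (horizontal axis), of the 10 tested MMP and TIMP probes (vertical axis); diamonds are limma estimates with their 95% confidence intervals, and orange markers, drawn just above, are the differences within the same-numbered lambs 1, 2 and 3. Every interval spans 0, and for MMP2 and MMP7 the pairs numbered 1 and 2 lie far apart.

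The same-numbered pairs went in different directions for the proteases. At the representing MMP2 probe the large wave lamb was higher by 2.26 in pair 1 and lower in pairs 2 and 3, with differences of -2.04 and -1.39. MMP14 had the same order, 1.25 in pair 1 and -0.92 and -0.67 in pairs 2 and 3. At the representing MMP7 probe the large wave lamb was lower in pair 1, with -2.15, and higher in pairs 2 and 3, with 2.08 and 0.13. The second MMP7 probe gave -1.86, -0.05 and -0.13, so that the opposite sign in pair 2 was found at 1 of the 2 probes only.

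At most of the tested MMP probes the values of these small wave lambs lay further apart than those of the large wave lambs. The SD over the 3 small wave lambs was at least 2 times that of the large wave lambs in 6 of 7 tested MMP probes, where 36.8% of the 9220 probes tested with a value on all 6 arrays met this. The median SD of the MMP probes was 0.34 in large wave and 1.46 in small wave lambs, against 0.38 and 0.58 over all those probes. The 6 were the MMP2 and MMP7 probes and MMP14 A_70_P031016. They cover 3 genes, and probes of 1 gene are not independent. The exception was MMP14 A_70_P050426, with 0.39 and 0.24. Of the 2 TIMP probes with a value on all 6 arrays, 1 also met this. It was TIMP3, with SDs of 0.13 and 0.30, while TIMP1 A_70_P051411 had 0.47 and 0.78. The MMP count was also 6 of 7 with quantile normalization, which gives nearly the same values as the authors' deposited table (r at least 0.999992 on each array). It was 1 of 7 without small wave replicate 1, where 28.7% of all probes met the limit, so that the MMP count rests on that lamb. This measure was chosen after the values were seen and is given as a description, with no test.

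Ratios within an array do not depend on a single factor that scales the array, though quantile normalization can change them. The representing probes of MMP2 and MMP7 moved in opposite directions in small wave replicates 1 and 2. The log2 ratio of MMP2 over MMP7 was 0.56, 0.31 and -0.98 in large wave replicates 1 to 3. In small wave replicates 1 to 3 it was -3.84, 4.43 and 0.54. Small wave replicates 1 and 2 thus differed by 8.27 on the log2 scale, while the 3 large wave lambs lay between them. After normexp background correction, which adds an offset that draws dim signals together, the values of small wave replicates 1 and 2 were -2.44 and 1.63. Over the 6 arrays MMP2 correlated with MMP14 at r = 0.91 and with MMP7 at r = -0.94, and MMP14 with MMP7 at r = -0.93. These values are a description over 1 probe per gene, and they rest mainly on small wave replicates 1 and 2. The other MMP7 probe was not lowest in small wave replicate 2, at -2.17 against -3.70, and the other MMP14 probes followed the representing one at r = -0.45 and 0.23 only.

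**Figure D4:**
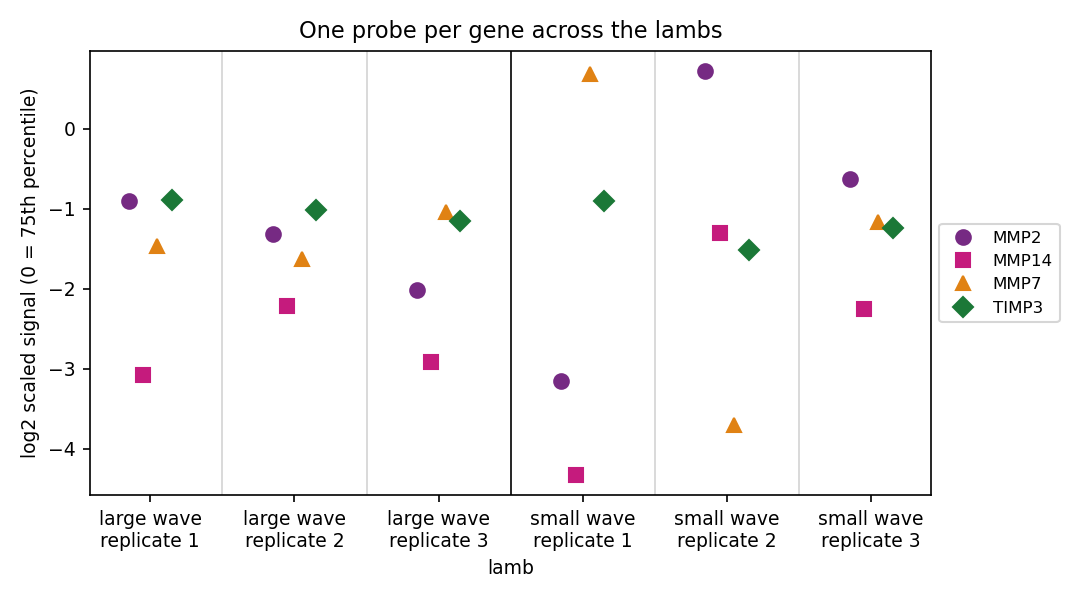
Log2 scaled signal (vertical axis, 0 is the 75th percentile of the array) of the representing probes of MMP2, MMP14, MMP7 and TIMP3 in each of the 6 lambs (horizontal axis). MMP2 and MMP14 are lowest and MMP7 highest in small wave replicate 1, the reverse holds in small wave replicate 2, and TIMP3 stays between -1.52 and -0.89.

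The ratio of protease over inhibitor overlapped between the groups for each of the 6 combinations of MMP2, MMP7 or MMP14 with TIMP1 or TIMP3. MMP2 over TIMP3 was -0.01, -0.30 and -0.86 in the large wave lambs and -2.25, 2.24 and 0.61 in the small wave lambs, a difference between the group means of -0.59. MMP14 over TIMP3 averaged -1.72 ± 0.49 (SD, n = 3) in large wave and -1.41 ± 1.85 in small wave lambs. MMP7 over TIMP3 was -0.57, -0.61 and 0.11 in large wave and 1.59, -2.19 and 0.07 in small wave lambs. Against TIMP1 the group means of the ratio differed by 0.35 for MMP2, 0.77 for MMP7 and 0.64 for MMP14, each higher in large wave skin, and each by less than the SD of the small wave lambs (1.5, 2.70 and 1.09). After normexp with marked backgrounds replaced, an alternative chosen after the values were seen, these 3 differences were 0.04, 0.12 and 0.39. After quantile normalization the wave differences of the representing probes were -0.43 for MMP2, -0.06 for MMP7, -0.23 for MMP14 and -0.43 for TIMP1. Unscaled, TIMP1 ranged 1.54-fold over arrays whose brightness ranged 4.13-fold, with the large wave array brighter in each same-numbered pair. The part of array brightness in the ratios to TIMP1 was not tested. Against TIMP3 the 3 differences were below 0, at -0.59 for MMP2, -0.18 for MMP7 and -0.31 for MMP14. These signs hold for the representing probes only: TIMP1 A_70_P051412, MMP2 A_70_P026546 and MMP14 A_70_P050426 had wave differences of -0.01, 0.48 and 0.42. No test compared the inhibitors. The 3 ratios to one inhibitor share that probe and are not independent.

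Among the 304 other RefSeq-named genes with a value on all 6 arrays, those whose scaled pattern over the 6 lambs was most like each member were named by Pearson's r. For MMP2 these were MMP14 (r = 0.91), the angiotensin receptor AGTR1 (0.91) and the glucocorticoid receptor NR3C1 (0.87). For MMP14 they were AGTR1 (0.93), the pantothenate kinase PANK2 (0.92) and MMP2 (0.91). For MMP7 they were the glucose transporter SLC5A1 (0.95), the antiproliferative gene BTG2 (0.93) and the endothelial adhesion molecule SELE (0.88). Neither SLC5A1 nor SELE was well above background in small wave replicates 2 and 3, and SLC5A1 was not in large wave replicate 2 either. A further SELE probe was not well above background on any array. TIMP1 was most like ATP5MC2 (0.99), POLR2G (0.99) and CREM (0.98), and TIMP3 most like SQSTM1 (0.97), SLC25A17 (0.95) and NDUFA12 (0.94). These correlations share arrays and scaling and carry no p. Unscaled, CREM ranged from 25.7 to 29.8, POLR2G from 3735 to 5919 and ATP5MC2 from 4973 to 12196, over arrays whose 75th percentile ranged 4.13-fold. The part of array brightness in the likeness to TIMP1 was not tested.

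Genes around the MMP system were few on the array and none of them passed in limma. Of the substrates, no collagen could be named, and of the other matrix proteins 1 of 2 tested genes was higher and 1 lower in large wave skin. The small proteoglycan DCN, the 1 fibroblast marker that could be named, had 0.10 ± 0.51 (SE, 2 arrays per group with a value) and biglycan (BGN) -0.03 ± 0.38. Of 3 tested activators and surface partners of MMPs 1 was higher and 2 were lower, with a median of -0.09. PLAUR, the receptor that focuses plasminogen activation at the cell surface, had -1.05 ± 0.82 and the activator PLAU itself -0.09 ± 0.51. The integrin chain ITGAV had 0.004 ± 0.31. PLAUR was well above background on 4 arrays and PLAU on 3. Of 3 tested genes from the list of serpins and other protease inhibitors 2 were higher and 1 lower, with a median of 0.94. These were SERPINF1, a member of the serpin family not known to inhibit proteases, with 1.31 ± 0.78, the elastase inhibitor PI3 with 0.94 ± 1.0 and SERPINA1, antitrypsin, with -0.38 ± 0.64. SERPINF1 was not well above background in small wave replicate 3, at -3.82. For ADAM proteases and cathepsins no gene of the lists could be named.

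Of 8 tested inducers and repressors of MMP transcription 3 were higher and 5 lower, with a median of -0.43 against -0.15 over the 346 named genes tested. TGFB1 had 0.69 ± 0.64 (SE) and the AP-1 component FOS 0.55 ± 0.65. TGFB1 was not well above background in small wave replicate 3, at -4.70 against -2.80 to -2.37 in the other lambs. FOS was well above background on 3 arrays. NFKBIA, an inhibitor of NF-kappaB, had -0.98 ± 0.34, the 1 of the 8 genes at an unadjusted p under 0.05, where 10 of the 346 named genes and 3.82% of all probes were, and PPARG -0.39 ± 0.34. Unscaled, NFKBIA had 1111, 663 and 587 in large wave lambs and 1169, 757 and 771 in small wave lambs. The 75th percentile of these arrays ranged 4.13-fold, and the part of array brightness in the NFKBIA difference was not tested. The cytokines IL1B and IL6, which induce MMPs, were not well above background on any array. Of 6 tested growth factors and binding proteins that MMPs cleave or release 4 were higher and 2 lower, with a median of 0.22. IGFBP3 had 0.27 ± 0.41, IGFBP1 0.28 ± 0.66, VEGFA -1.20 ± 0.65 and IGFBP5 -0.53 ± 0.51. IGFBP1 was well above background on 3 arrays. Adjusted p in limma lay between 0.777 and 0.997 for the genes of these lists named here.

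Markers of the cell types that could carry these genes moved in part with the members. DCN, at its representing probe, had 4.79 in small wave replicate 1 and 5.99 in small wave replicate 2, the order of MMP2 and MMP14, against 5.56 and 5.42 in large wave replicates 1 and 2. SFN, the 1 keratinocyte marker tested, was highest in small wave replicate 3, at 8.97. It had 7.53, marked as an outlier, in small wave replicate 1 and 8.56 in small wave replicate 2. PI3, made by stressed keratinocytes, is on the list of protease inhibitors and on none of the marker lists. It had -1.86 in small wave replicate 1 and 2.29 in small wave replicate 2. SELE, the 1 endothelial marker tested, had -3.69 and -6.20 there, the order of MMP7, and was well above background in the first of these lambs only. Of the macrophage and monocyte markers 3 of 5 named genes were tested, their summed scaled signal was 0.207 to 0.285 in large wave and 0.210 to 0.430 in small wave lambs, and ITGAM was not well above background on any array. For the 2 neutrophil markers tested the sums were 1.05 to 2.45 and 1.82 to 7.07. The highest sum was that of small wave replicate 1, the lamb with the highest MMP7. There the neutrophil granule gene CATHL3 had 2.81 on the log2 scale against 0.85 and 1.19 in small wave replicates 2 and 3. The other marker, CXCL8, followed only in part. It had -3.92 in small wave replicate 1 and -6.01 in small wave replicate 2, the order of MMP7. It also had -3.92 in small wave replicate 3 and was highest in large wave replicate 3, at -3.67. CXCL8 was not well above background in small wave replicates 2 and 3. In small wave replicate 1 the mast cell gene FCER1A was lowest, as MMP2 and MMP14 were, at -4.02 against -1.44 and -0.64. For the 2 T lymphocyte markers tested the sums were 0.208 to 0.382 and 0.225 to 0.338, with CD3D and CD28 not well above background on any array. Of the other lists, the 4 hair follicle genes with 6 values summed to 78.1 to 147 in large wave and 99.0 to 119 in small wave lambs, the 3 adipocyte genes to 3.01 to 3.67 and 3.37 to 6.72, the 2 skeletal muscle genes to 0.416 to 0.685 and 0.364 to 0.482, and the 1 mast cell gene, FCER1A, ranged from 0.268 to 0.875 and 0.0616 to 0.641. The part of cell composition in the MMP and TIMP values was not tested.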

How the data were processed

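Spot intensity values in the deposited scanner output come from Agilent Feature Extraction. Its version is 10.7.3.1 per the file headers and 10.7 in the submitters' processing notes, and the array design is 019921; the processed signal is background-subtracted and not scaled between arrays. Quality flags of 0 or 1 come from the same deposited files. A table of log2 values that the authors deposited has 15068 rows with a median of 4.95 in each column; its values nearly equal quantile-normalized ones (r at least 0.999992), though the method was not given in the sources used here. All 6 arrays lay on 1 slide. There were 0 saturated spots, and 0 sample columns were left unused.

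From these files, log2 processed signals were taken minus the array's 75th percentile over 15208 spots without controls, spots of a probe were averaged, and outlier-marked spots were left out. Probes that 3 or more of the 6 arrays marked as well above background were tested (10048, of which 10047 had a value in both groups) with limma 3.58.1 in R 4.3.3, with a variance trend, adjusted by Benjamini-Hochberg, at a threshold of 0.05. Names came from RefSeq accessions matched without versions to the table of ARS-UI_Ramb_v3.0 (767 of 786 probes); the build of the array design was not given in the sources used here, so no coordinates are printed, and no sequences were used.

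The tested probe with the highest mean represents a gene. Every member is named, and from each list up to 2 genes higher and 2 lower by smallest unadjusted p; for each member with 6 values, the 3 genes most like it. The members and lists were chosen with earlier results of these data known. Same-numbered lambs deviated together from their groups (r = 0.30, 0.18 and 0.20 over 9220 probes, all over the limit of 0.1), so their numbers were used as pairs, which no label states. Arrays of the same number also lay in the same column of the slide: column 2 for replicate 1, 3 for replicate 2 and 4 for replicate 3. The part of slide position in these correlations was not tested, as number and column coincide. The main model had no block. Alternatives were other scalings, background correction, filters, blocks, weights, the deposited table and leaving out each array.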

Additional observations from a re-analysis of the deposited data

How the results depend on the processing

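Over 19 alternative settings, 0 probes passed the adjusted threshold, and 0 members did. The direction held in every setting that gave a value for MMP7 A_70_P016331 (-1.33 to -0.04), MMP14 A_70_P050426 (0.09 to 0.64), TIMP1 A_70_P051411 (-1.16 to -0.05) and TIMP3 (0.04 to 0.42). For the other 6 probes it did not, and the cause was not tested. After normexp and quantile normalization the differences were -0.24 for MMP7 A_70_P016332, 0.024 for MMP14 A_70_P031016 and 0.041 for TIMP1 A_70_P051412. On large wave replicate 2, 19 spots had a local background over 1000, and the median signal after this correction was 1360, against 77.7 to 124 on the others; with marked backgrounds replaced, chosen after seeing the data, the differences were -0.29, 0.023 and 0.037. Median in place of mean spot signals were used for it. After quantile normalization alone MMP7 A_70_P016332 had -0.062 and TIMP1 A_70_P051412 0.20, and in the deposited table the former had -0.063. With the 75th percentile over detected probes MMP14 A_70_P031016 had 0.11 and TIMP1 A_70_P051412 0.13.

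With the replicate block TIMP1 A_70_P051412 had 0.064, and no call changed. Blocking on the slide row gave 0.27 and 0.12 for MMP2 A_70_P026547 and A_70_P061386, -0.52 for MMP7 A_70_P016332, 0.23 for MMP14 A_70_P031016 and 0.0061 for TIMP1 A_70_P051412. The brightness covariate gave 0.44, 0.54, -0.75, 0.84 and 0.27 for these 5 probes in turn, -0.05 for TIMP1 A_70_P051411, and a median of 0.49 over MMP probes. The count of probes at an unadjusted p under 0.05 was 584 with the replicate block, 142 with the slide row, 976 with array weights, 254 with the brightness covariate, and 155 to 1764 when arrays were left out.

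Leaving out single arrays, MMP2 A_70_P026546 ranged from -0.16 to 0.97, MMP2 A_70_P026547 from -1.46 to 0.48, MMP2 A_70_P061386 from -1.17 to 0.14, MMP7 A_70_P016332 from -1.14 to 1.06, MMP14 A_70_P031016 from -0.96 to 0.55 and TIMP1 A_70_P051412 from -0.38 to 0.36. The MMP median ranged from -0.35 to 0.48, and the number of MMP probes with a small wave SD at least 2 times the large wave SD from 1 to 7. With normexp the ratios of MMP2, MMP7 and MMP14 over TIMP1 differed between groups by 1.26, 1.26 and 1.61, and with marked backgrounds replaced by 0.04, 0.12 and 0.39.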
